A study of Mus musculus with 6 samples.

Results

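The collagen family was read from the gene table of a mouse RNA sequencing series as every protein-coding gene whose symbol begins with Col, a number, the letter a and a number. The rule took 45 of the 33919 genes in the table. Of these, 44 encode collagen chains. The other, Col4a3bp, carries a collagen name but encodes the ceramide transporter CERT, and is given apart. The chains were sorted by the kind of assembly they form: 11 fibrillar, 9 FACIT (fibril-associated collagens with interrupted triple helices), 6 basement membrane, 6 beaded filament, 4 transmembrane, 2 multiplexin, 3 hexagonal network and 3 other collagens.

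The series holds 6 poly(A) libraries labelled aorta. Of these, 3 carry the label WT and 3 the label KO, and all 6 come from mice given Ang II (angiotensin II, a vasoconstrictor peptide used to provoke hypertension and thickening of the artery wall in mice). The title names endothelial OTUD1, which removes ubiquitin from other proteins, and SMAD3, which carries TGF-beta signals to the nucleus, so the comparison concerned the effect of genotype under Ang II. Each group is described as 3 mice. The allele, the promoter behind any endothelial deletion, the strain, the age, the dose and the time are not stated in the labels or design text, no group without Ang II was analysed, and no label ties a library to an animal, so each p-value reflects only how these libraries spread, which may be technical.

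Collagens are proteins of the extracellular matrix, most of them secreted, whose chains wind into a helix that needs a glycine at regular steps along each chain. Type I and type III collagen form the banded fibrils that give artery walls, tendon and fascia their tensile strength, type V and type XI chains start those fibrils and limit their width, and FACIT collagens sit on the fibril surface. Type IV collagen forms the sheet-like network of basement membranes under endothelium and around muscle fibres and fat cells, type VI forms beaded filaments between these kinds of matrix, and the multiplexins XV and XVIII lie where basement membranes meet fibrils. Chains are hydroxylated and folded in the endoplasmic reticulum, trimmed outside the cell, crosslinked by lysyl oxidases, and bound by integrins and discoidin receptors.

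The glycine rule is visible in the genes themselves. Many fibrillar collagen exons are 54 bases long and hold 6 repeats of 9 bases, each starting with a glycine codon (GGN). The first such exon of the 6 chains on which the results below turn is printed 5′ to 3′ on the coding strand, from the GRCm38 transcripts of GENCODE release M21, with the glycine codons in capitals. They are examples of such an exon in fibrillar, FACIT and basement membrane chains.
Col3a1 exon 6, chromosome 1, 45325360 to 45325413, plus strand: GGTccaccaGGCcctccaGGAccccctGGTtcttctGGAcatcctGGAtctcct
Col1a2 exon 8, chromosome 6, 4515481 to 4515534, plus strand: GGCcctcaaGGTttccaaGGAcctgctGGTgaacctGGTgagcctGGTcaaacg
Col1a1 exon 8, chromosome 11, 94939904 to 94939957, plus strand: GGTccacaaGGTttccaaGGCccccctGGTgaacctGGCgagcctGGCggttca
Col22a1 exon 13, chromosome 15, 71952523 to 71952576, minus strand: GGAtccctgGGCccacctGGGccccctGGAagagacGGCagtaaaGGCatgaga
Col4a1 exon 7, chromosome 8, 11245211 to 11245264, minus strand: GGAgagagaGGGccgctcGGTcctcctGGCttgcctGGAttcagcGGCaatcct
Col4a2 exon 17, chromosome 8, 11413979 to 11414032, plus strand: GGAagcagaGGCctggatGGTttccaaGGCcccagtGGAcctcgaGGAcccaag
In each of the 6 exons all 6 triplets start with GGN, since exons were picked for this. How common such exons are differs: wholly coding exons of 54 bases numbered 21 in Col1a1, 2 in Col4a1 and 1 in Col4a2.

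The classes differed in how far such repeats run without a break. Counting runs of at least 5 glycine-first triplets in the longest complete coding sequence, the 11 fibrillar chains had 2 or 3 runs, and the longest held 216 to 344 triplets. The shortest of these belonged to Col24a1 (216) and Col27a1 (217), and the other 9 reached at least 337. Exons of exactly 54 bases made up 42.9% to 56.9% of the wholly coding exons of the fibrillar genes, against 2.22% to 5.88% in the 6 basement membrane genes. Those type IV chains held 22 to 27 runs each, and the longest run spanned 39 to 66 triplets. Among FACIT genes Col22a1 had a longest run of 113 triplets and 28 exons of 54 bases, while Col12a1 and Col14a1, whose coding sequence is mostly other modules, had a longest run of 32 triplets and 4 such exons each. Col4a3bp had 0 runs, as a gene that encodes no collagen.

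**Figure D1:**
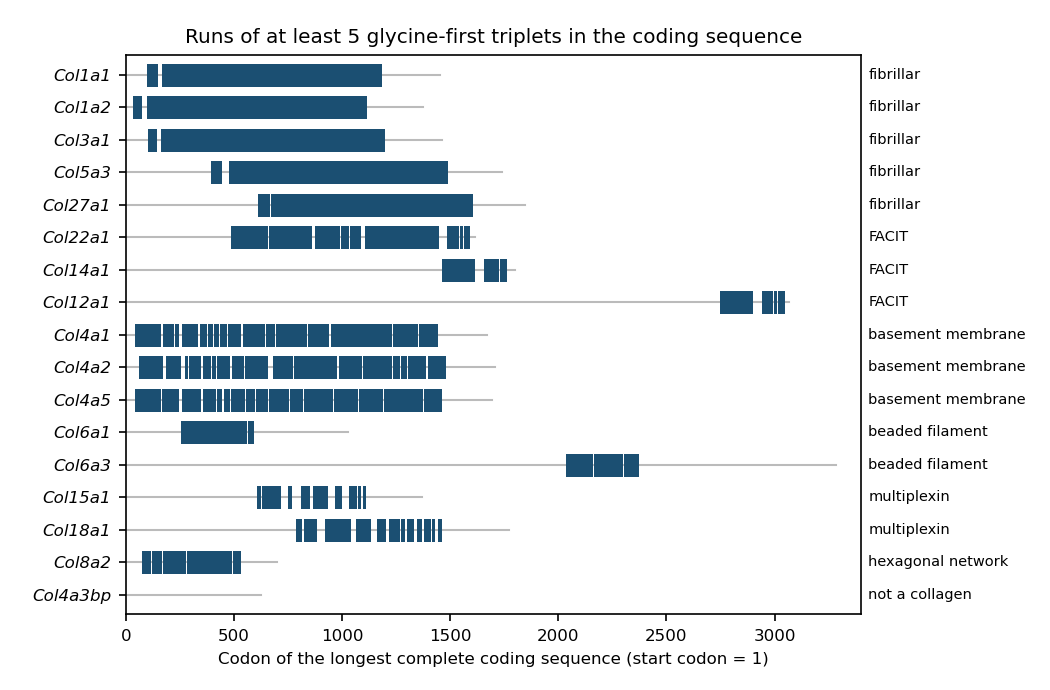
Runs of at least 5 glycine-first triplets (filled blocks) along the longest complete coding sequence (grey line, in codons from the start codon) of 16 collagen genes and Col4a3bp, with the class named at the right. Fibrillar genes show long, nearly unbroken blocks, type IV genes show 22 to 24 short blocks, and Col4a3bp shows none.

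Depth was 62.3 to 71.5 megacounts per library. Mitochondrial genes and their copies in the nuclear genome took 71.1% to 73.7% of counts in the WT-labelled libraries and 64.8% to 67.8% in the KO-labelled ones, which left 17.3 to 19.4 and 23.0 to 23.4 megacounts. Of the counts that were left, collagens took 0.236% to 0.248% in the WT-labelled libraries and 0.122% to 0.128% in the KO-labelled ones. With mitochondrial genes left out of the fit, the number of lower collagens was again 20. Otud1, the check of the genotype label, had 593, 699 and 615 counts in the WT-labelled libraries and 1033, 1141 and 1223 in the KO-labelled ones (log2 fold change 0.63, SE 0.12, edgeR adjusted p 0.00388). The counts were thus higher, not lower, under the label KO. The labels do not state which part of the gene was removed or in which cells. The title names endothelial OTUD1, and bulk counts cannot show a loss in endothelial cells alone, so the genotype label could not be checked. Each direction below therefore compares KO-labelled with WT-labelled libraries, by label only.

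The tissue label was also checked against markers. Here rose and fell mean an edgeR adjusted p under 0.05. Among all genes tested, 11.5% rose and 10.5% fell in the KO-labelled libraries. Transcripts of 16 skeletal muscle markers summed to 25548 to 26132 CPM (counts scaled to a common library total by edgeR) in the WT-labelled libraries and to 32226 to 33155 in the KO-labelled ones, where 9 of the 16 rose and 4 fell. Of 9 smooth muscle markers 8 fell, from a sum of 548 to 556 CPM to one of 178 to 182, and Myocd, the master regulator of that cell type, had 16, 25 and 41 counts and then 0, 0 and 0. Of 12 fibroblast markers 9 fell, from 1141 to 1160 CPM to 635 to 646, and Tcf21 had 23, 19 and 18 counts and then 0, 0 and 0. Of 14 tendon and cartilage markers 10 could be tested and 7 fell, from 133 to 142 CPM to 33.7 to 39.2. Kera, Acan and Matn3 were at 0 in the KO-labelled libraries, from 291 to 318 counts for Kera but only 27, 19 and 0 for Acan and 12, 0 and 9 for Matn3, and Matn1 was at 0 in all 6. Apart from Kera, these counts lie near the 12 counts per library that a count of 0 allows. The sums of the 10 endothelial markers lay at 618 to 641 and 577 to 586 CPM, with 4 markers lower and 2 higher. In bulk RNA, fewer cells of a type and less RNA per cell cannot be told apart, and this holds for every collagen below.

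Collagen transcripts were lower as a family in the KO-labelled libraries. Of 44 collagens, 36 had enough counts to be tested, 20 of these fell, 0 rose at an adjusted p of 0.05 and 16 did not pass (edgeR quasi-likelihood test, adjusted over all 16620 genes tested). Lower genes made up 55.6% of the tested collagens and 10.5% of all genes tested, while higher genes made up 11.5% of all genes tested. At an unadjusted p of 0.05, 2 collagens were higher, Col5a3 and Col27a1, and with DESeq2 the count of higher collagens was 1, Col5a3. A fall of at least 2-fold was seen in 14 collagens, against 3.97% of all genes tested. The median log2 fold change was -0.79 over the tested collagens and -0.02 over all genes tested.

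In 21 of the 36 tested collagens all 3 KO-labelled libraries lay below all 3 WT-labelled ones in CPM, against 19.4% of all genes tested. In 2, Col5a3 and Col27a1, they lay above, against 19.3% of all genes, and in 13 the groups overlapped. Of the 36, 30 reached the count filter in all 3 libraries of both groups. Of the others, 5 reached it in all 3 libraries only of the group labelled WT (Col11a1, Col4a6, Col4a3, Col8a2 and Col26a1), so that these entered the test through their level there, and Col13a1 reached it only in the group labelled KO. Among the 30, 17 fell, 11 of them at least 2-fold, and the median log2 fold change was -0.66. The other 3 lower collagens, Col11a1, Col4a6 and Col8a2, are those that entered the test through the group labelled WT.

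**Figure D2:**
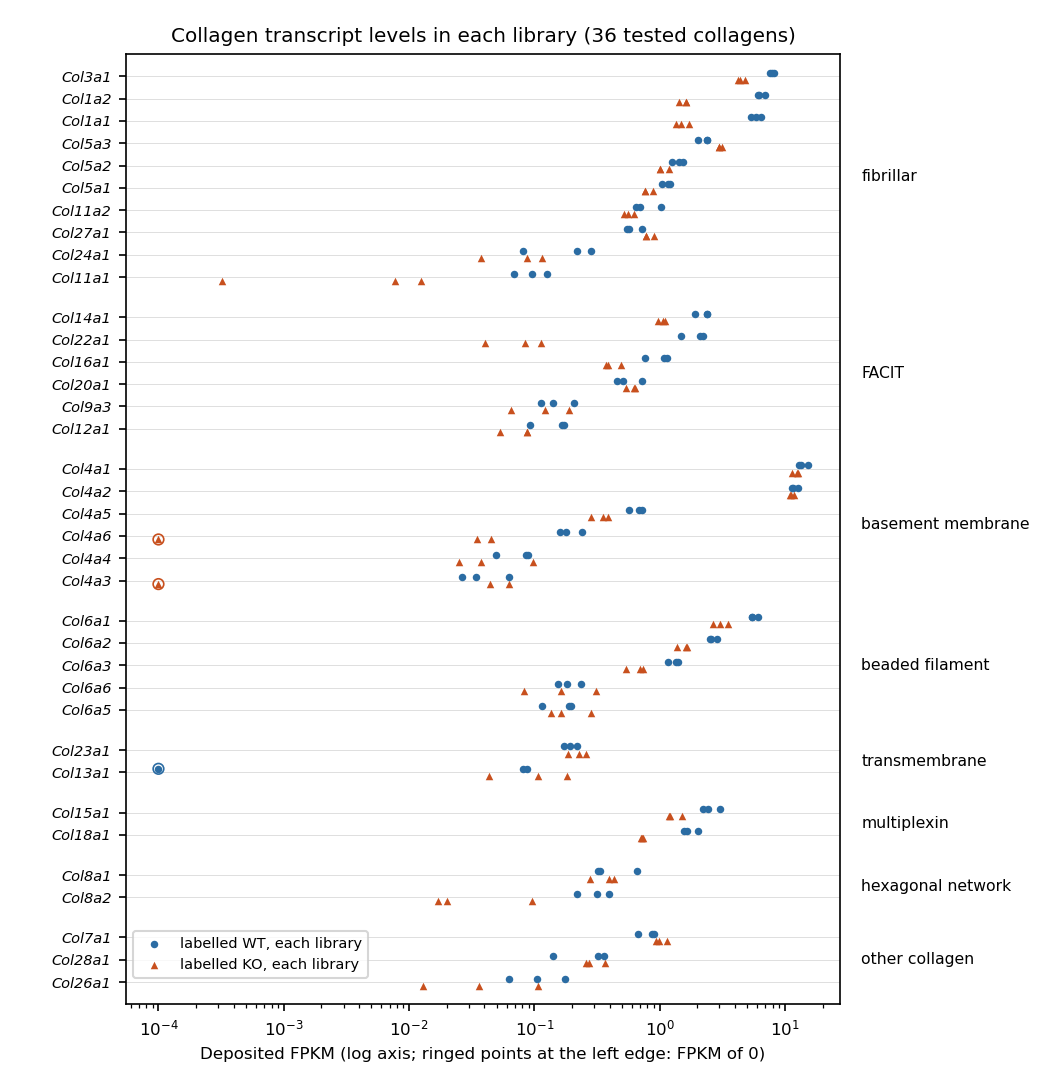
Deposited FPKM (log axis) of the 36 tested collagens in each library, grouped by class, with circles for the 3 WT-labelled libraries and triangles for the 3 KO-labelled libraries. Col4a1, Col4a2 and Col3a1 hold the highest levels in both groups, and the KO-labelled libraries lie far to the left for Col22a1, Col1a1 and Col1a2.

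**Figure D3:**
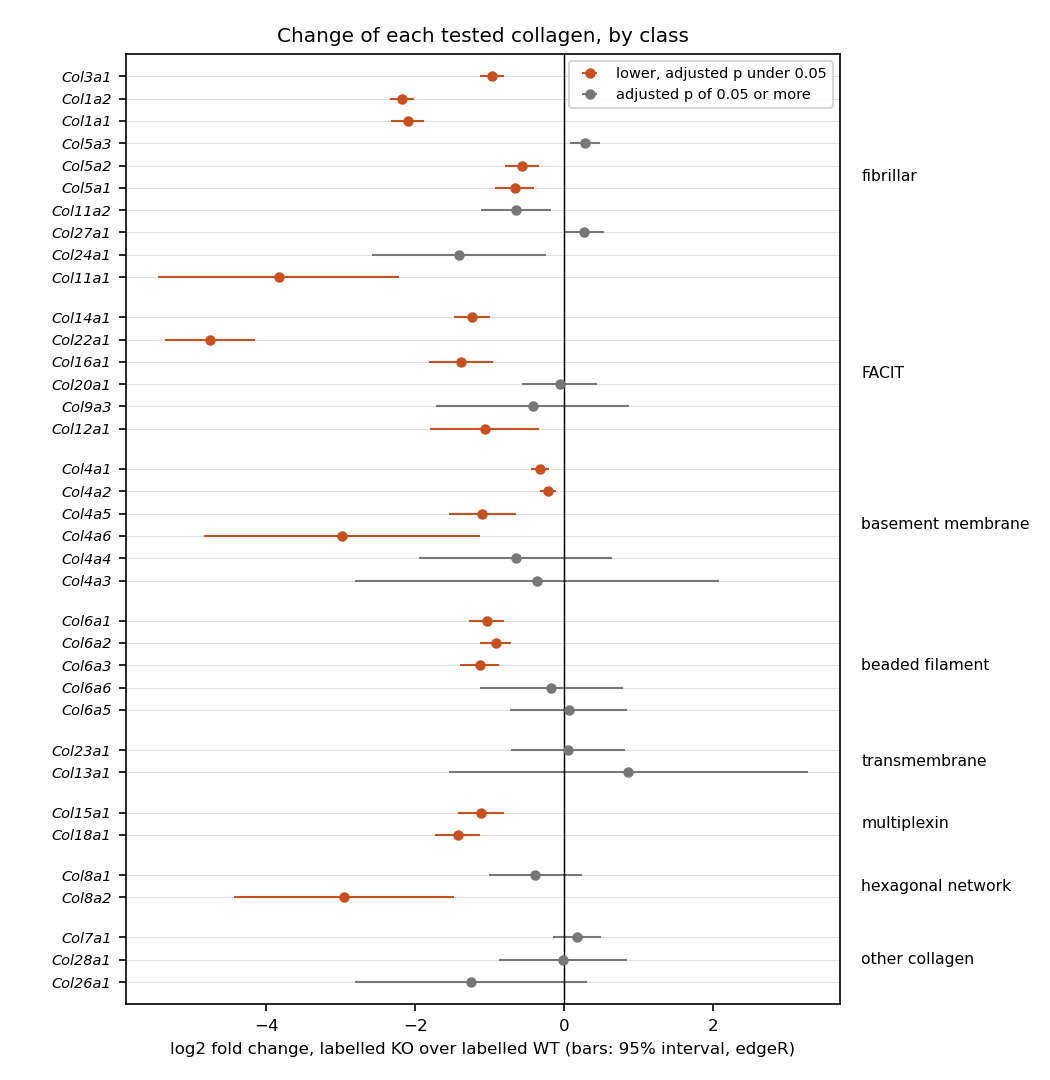
Log2 fold change of each tested collagen, KO-labelled libraries over WT-labelled libraries, with approximate 95% intervals derived from the edgeR F statistic, coloured where the adjusted p was under 0.05. The 20 coloured points all lie below 0. The points of Col13a1, Col5a3, Col27a1, Col7a1, Col6a5 and Col23a1 lie to the right of it without passing the test.

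The fibrillar class held the chains with the largest falls in FPKM, Col1a2, Col1a1 and Col3a1. Of its 11 members 10 were tested, 6 fell and 4 did not pass, with a median log2 fold change of -0.82. Of all genes tested 10.5% fell. The 6 include Col11a1, which entered the test through its level in the group labelled WT. Col1a1 (ENSMUSG00000001506, chromosome 11, 94936224 to 94953042, plus strand, GRCm38) encodes the alpha 1 chain of type I collagen. Its deposited FPKM (fragments scaled by gene length and library total) was 5.84, 5.33 and 6.47 in the WT-labelled libraries and 1.49, 1.70 and 1.35 in the KO-labelled ones. Each of the first 3 values was more than 3 times each of the others. Col1a1 fell 4.28-fold (log2 fold change -2.10, SE 0.10, edgeR adjusted p 1.6e-07).

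Col1a2 (ENSMUSG00000029661, chromosome 6, 4504814 to 4541544, plus strand), the partner alpha 2 chain, had 6.18, 6.05 and 7.00 FPKM in the WT-labelled libraries and 1.63, 1.44 and 1.64 in the KO-labelled ones. The groups lay far apart, and the fall was 4.52-fold (log2 fold change -2.18, SE 0.07, edgeR adjusted p 1.56e-08). Col3a1 (ENSMUSG00000026043, chromosome 1, 45311538 to 45349706, plus strand), the only chain of type III collagen, had 7.57, 7.90 and 8.24 FPKM and then 4.25, 4.76 and 4.42. Again no KO-labelled library reached a WT-labelled library, and the fall was 1.96-fold (log2 fold change -0.97, SE 0.07, edgeR adjusted p 4.13e-06). By mean FPKM within the family Col3a1 kept rank 3 in both groups, whereas Col1a2 went from rank 4 to 6 and Col1a1 from rank 5 to 8.

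The chains of type V collagen, which nucleates fibrils, did not move together. Col5a1 (log2 fold change -0.66, SE 0.12, adjusted p 0.00235) and Col5a2 (-0.57, SE 0.10, adjusted p 0.00245) fell, the latter not with limma on log2(FPKM + 1) (adjusted p 0.0543). Col5a3 (ENSMUSG00000004098, chromosome 9, 20770050 to 20815067, minus strand), the alpha 3 chain of that type, stood at 2.37, 2.01 and 2.37 FPKM in the WT-labelled libraries and at 2.97, 3.15 and 2.95 in the KO-labelled ones. Every KO-labelled library was above every WT-labelled library. The log2 fold change of 0.28 (SE 0.09, 95% interval 0.08 to 0.48) had an edgeR adjusted p of 0.0522. Of 17 alternatives 6 called it, among them DESeq2 (adjusted p 0.00908) and limma on log2(FPKM + 1) (adjusted p 0.0158). The other 11 did not, among them limma after quantile normalization (adjusted p 0.0635), and the adjusted p reached 0.169. In rank by mean FPKM Col5a3 went from 9 to 5, and in the KO-labelled libraries it exceeded Col1a1 and Col1a2.

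The remaining fibrillar chains were scarce. Col11a1, a chain of cartilage and tendon fibrils, had 127, 91 and 62 counts in the WT-labelled libraries and 8, 13 and 1 in the KO-labelled ones. It fell by 3.83 on the log2 scale (SE 0.73, edgeR adjusted p 0.00343), a size that rests on counts near the detection floor of 12 counts and was -4.50 without the second KO-labelled library. Col11a2 (log2 fold change -0.65, adjusted p 0.0542) and Col24a1 (-1.41, adjusted p 0.0857) did not pass, nor did Col27a1 (0.27, adjusted p 0.142), whose KO-labelled libraries lay at 0.775 to 0.902 FPKM against 0.547 to 0.728. DESeq2 called Col11a2 (adjusted p 0.0078) and Col24a1 (adjusted p 0.0103) lower, and 5 and 4 of 14 alternatives did so. Col2a1, the fibril collagen of cartilage, had 33, 0 and 10 counts and then 0, 0 and 6, too few to test.

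Fibroblasts are the main source of fibrillar collagen in most tissues. In the same libraries the fibroblast markers Dcn (log2 fold change -1.69) and Dpt (-1.38), both with adjusted p under 0.05, fell with them, and 9 of the 12 markers of the list did. The part of these cells, of smooth muscle cells and of tendon in the fibrillar changes was not tested.

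Among the 9 FACIT members, 6 were tested, 4 fell and 2 did not pass, with a median log2 fold change of -1.15. Of all genes tested 10.5% fell. Col22a1 (ENSMUSG00000079022, chromosome 15, 71795795 to 72034227, minus strand), known as a collagen of the junction between muscle and tendon, had 1511, 1003 and 1415 counts in the WT-labelled libraries and 75, 60 and 30 in the KO-labelled ones. Its FPKM was 2.09, 1.49 and 2.22 and then 0.113, 0.0835 and 0.0404, so that each KO-labelled library was more than 10 times below each WT-labelled one. The fall was 27.0-fold (log2 fold change -4.75, SE 0.27, edgeR adjusted p 6.94e-07), and Col22a1 went from rank 11 to 29 in the family. The tendon markers Comp (log2 fold change -3.75) and Chad (-5.59) fell in the same libraries, and Kera went from 291, 318 and 294 counts to 0, 0 and 0. Their part in the fall of Col22a1 was not tested.

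Col14a1, which decorates type I fibrils and is abundant in fibroblasts, had 2.38, 1.93 and 2.39 FPKM in the WT-labelled libraries and 1.06, 1.10 and 0.968 in the KO-labelled ones. The groups did not overlap, and the fall was 2.37-fold (log2 fold change -1.24, SE 0.11, edgeR adjusted p 1.56e-05). Col16a1 fell 2.62-fold (log2 fold change -1.39, SE 0.19, edgeR adjusted p 0.000481), from 0.764 to 1.15 FPKM down to 0.373 to 0.493. Col12a1, a fibril-surface collagen of tendon and fascia, had 201, 104 and 183 counts and then 96, 104 and 64, with an edgeR log2 fold change of -1.07 and an adjusted p of 0.0421. That call lay near the threshold and was lost without any library but the second WT-labelled one. The adjusted p was 0.134 without the first and 0.123 without the last WT-labelled library. It was 0.0794, 0.0622 and 0.124 without the first, second and last KO-labelled library. The log2 fold change in these fits lay between -1.19 and -0.88.

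Col20a1 (log2 fold change -0.06) and Col9a3 (-0.42) did not pass. Col20a1 shares 741 bases on the same strand with 9230112E08Rik, a gene with a mean of 189.5 counts, so its reads are uncertain. Col9a2, a cartilage collagen, had 52, 25 and 5 counts in the WT-labelled libraries and 0 in all 3 KO-labelled libraries, where a count of 0 allows up to 12 deposited counts per library. Col9a1 was at 0 in all 6 libraries, and Col19a1 had 14, 5 and 27 counts and then 0, 6 and 4.

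Col4a1 and Col4a2, the chains of the common basement membrane network, were the most abundant of the family in both groups. Of 6 basement membrane chains tested 4 fell and 2 did not pass, with a median log2 fold change of -0.51. Of all genes tested 10.5% fell. Col4a6, among the 4, and Col4a3, among the 2, entered the test through their level in the group labelled WT. Col4a1 (ENSMUSG00000031502, chromosome 8, 11198423 to 11312826, minus strand) had 13.4, 12.9 and 15.2 FPKM in the WT-labelled libraries and 12.6, 12.7 and 11.3 in the KO-labelled ones. The highest KO-labelled library lay just under the lowest WT-labelled one. On edgeR's scale it fell 1.25-fold (log2 fold change -0.33, SE 0.06, adjusted p 0.00161). Col4a2 (ENSMUSG00000031503, chromosome 8, 11312805 to 11449287, plus strand), its partner in the standard network, had 11.7, 11.4 and 12.7 FPKM and then 11.8, 11.1 and 11.2.

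The FPKM of Col4a2 overlapped between the groups, while its TMM-scaled counts did not and gave a 1.16-fold fall (log2 fold change -0.22, SE 0.05, edgeR adjusted p 0.00811). Both calls depended on the scaling. With limma on log2(FPKM + 1) the adjusted p was 0.179 for Col4a1 and 0.525 for Col4a2. After quantile normalization of FPKM, limma called both lower, Col4a1 by 0.41 (adjusted p 0.0037) and Col4a2 by 0.28 (adjusted p 0.0077) on the log2 scale. On log2(FPKM + 1) without it the median of the 8605 genes tested moved by 0.15. In edgeR the median was -0.02 over 16620 genes. A gene at a constant FPKM thus lay below the median gene of the first fit. The endothelial markers did not move together in the same libraries: Vwf rose (log2 fold change 1.27, adjusted p 6.3e-07) and Egfl7 fell (-0.54, adjusted p 7.96e-06). Over the 10 markers 4 fell, 2 rose and 4 did not pass, with a median of -0.12, and only 1 rose without the second WT-labelled library or the second or last KO-labelled one. The part of endothelial cells in the levels of these chains was not tested.

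The chains of the other type IV networks were far scarcer. Col4a5, found in basement membranes of kidney and smooth muscle, had 0.572, 0.686 and 0.723 FPKM in the WT-labelled libraries and 0.353, 0.285 and 0.386 in the KO-labelled ones, without overlap. It fell 2.14-fold (log2 fold change -1.10, SE 0.20, edgeR adjusted p 0.00268). Its partner Col4a6 went from 150, 104 and 90 counts to 21, 28 and 0 (log2 fold change -2.98, SE 0.84, edgeR adjusted p 0.0266). With DESeq2 on all 6 libraries Col4a6 did not pass (adjusted p 0.0663). Its edgeR adjusted p was 0.0929, 0.067 and 0.0544 without the first, second and last WT-labelled library and 0.0682 without the first KO-labelled one, and the log2 fold change was -3.60 without the second KO-labelled one. Smooth muscle markers fell beside this pair, with Acta2 at a log2 fold change of -2.07, and their part was not tested. Col4a3 (-0.37) and Col4a4 (-0.65), the chains of the mature glomerular network, had at most 75 counts in any library and did not pass.

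The 3 chains that build the common type VI collagen monomer all fell, each by about 2-fold. Col6a1 had 5.51, 5.41 and 6.11 FPKM in the WT-labelled libraries and 3.01, 3.51 and 2.66 in the KO-labelled ones. The groups were well apart, and the fall was 2.06-fold (log2 fold change -1.04, SE 0.11, edgeR adjusted p 5.21e-05). Col6a2 fell 1.89-fold (log2 fold change -0.92, SE 0.09, edgeR adjusted p 4.24e-05) and Col6a3 fell 2.19-fold (-1.13, SE 0.12, edgeR adjusted p 6.3e-05), again without overlap. Col6a5 (log2 fold change 0.06) and Col6a6 (-0.17), alternative chains of low level, did not pass, and Col6a4 had 18 counts in 1 KO-labelled library and 0 elsewhere. The median over the 5 tested beaded filament chains was -0.92. Fibroblasts make much of the type VI collagen of muscle and vessel, and the part of the fall in fibroblast markers in these values was not tested.

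Both multiplexins fell. Col15a1, which links basement membranes to fibrils around muscle and capillaries, had 2.45, 2.21 and 3.04 FPKM in the WT-labelled libraries and 1.20, 1.19 and 1.52 in the KO-labelled ones, without overlap. The fall was 2.17-fold (log2 fold change -1.12, SE 0.14, edgeR adjusted p 0.000205). Col18a1, whose end is released as endostatin, had 2.04, 1.66 and 1.57 FPKM and then 0.716, 0.719 and 0.738. The KO-labelled libraries were close to each other and below the rest, and the fall was 2.70-fold (log2 fold change -1.43, SE 0.14, edgeR adjusted p 3.01e-05).

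Type VIII collagen, a network-forming collagen of vessel walls and the cornea, is made of 2 chains, and only Col8a2 was called. Col8a2 entered the test through its level in the group labelled WT, while Col8a1 reached the count filter in every library. Col8a2 had 141, 73 and 99 counts in the WT-labelled libraries and 32, 7 and 6 in the KO-labelled ones (log2 fold change -2.96, SE 0.67, edgeR adjusted p 0.00893), and the change was -4.17 without the first KO-labelled library. Col8a1 stood at 0.337, 0.323 and 0.657 FPKM and then at 0.435, 0.276 and 0.398, with overlap (log2 fold change -0.39, adjusted p 0.392). Col10a1, the collagen of hypertrophic cartilage, had 6 counts in 1 WT-labelled library and 0 in the other 5.

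Transmembrane collagens sit in the plasma membrane and were near the limit of detection. Of 4 members 2 were tested and neither passed: Col23a1 (log2 fold change 0.05, 95% interval -0.71 to 0.81) and Col13a1 (0.86, 95% interval -1.54 to 3.27), the latter a collagen of the neuromuscular junction with 0 to 69 counts per library. Col17a1 and Col25a1 had at most 22 counts in any library. Among the other collagens Col7a1, the anchoring fibril collagen, had 0.902, 0.876 and 0.677 FPKM and then 1.15, 0.944 and 0.987 (log2 fold change 0.17, adjusted p 0.474). Col28a1 (-0.01) and Col26a1 (-1.25, adjusted p 0.253) did not pass either. Col4a3bp, the ceramide transporter, had a log2 fold change of -0.09 (adjusted p 0.687).

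Summed over each class, the family went from 76.1 ± 5.54 FPKM (SD, n = 3) in the WT-labelled libraries to 50.1 ± 1.58 (SD, n = 3) in the KO-labelled ones, and no test was made on these sums. The fibrillar sum went from 26.7 ± 1.60 to 13.9 ± 0.386 FPKM and the basement membrane sum from 26.7 ± 1.88 to 24.0 ± 0.949 (SD, n = 3 each). In the WT-labelled libraries the 2 classes thus held equal shares of the family, 35.1% each. In the KO-labelled libraries fibrillar chains held 27.8% and basement membrane chains 47.9%. FACIT chains went from 6.17 ± 1.02 to 2.35 ± 0.0558 FPKM, beaded filament chains from 9.99 ± 0.751 to 5.66 ± 0.624, and multiplexins from 4.33 ± 0.397 to 2.03 ± 0.199 (SD, n = 3 each). Each of the 5 class sums above was lower in every KO-labelled library than in every WT-labelled library. The transmembrane sum went from 0.268 ± 0.0374 to 0.349 ± 0.0855 FPKM and that of the other collagens from 1.21 ± 0.107 to 1.38 ± 0.0622 (SD, n = 3 each), both with overlap, and the hexagonal network sum from 0.758 ± 0.215 to 0.414 ± 0.118, without it. The fibrillar log2 ratio was -0.94, and without Col1a1, Col1a2 and Col3a1, the 3 chains with the largest falls in FPKM, chosen after their values were seen, it was -0.04. The remaining sum held Col5a1, Col5a2 and Col11a1, which fell, beside Col5a3 and Col27a1, whose FPKM was higher.

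**Figure D4:**
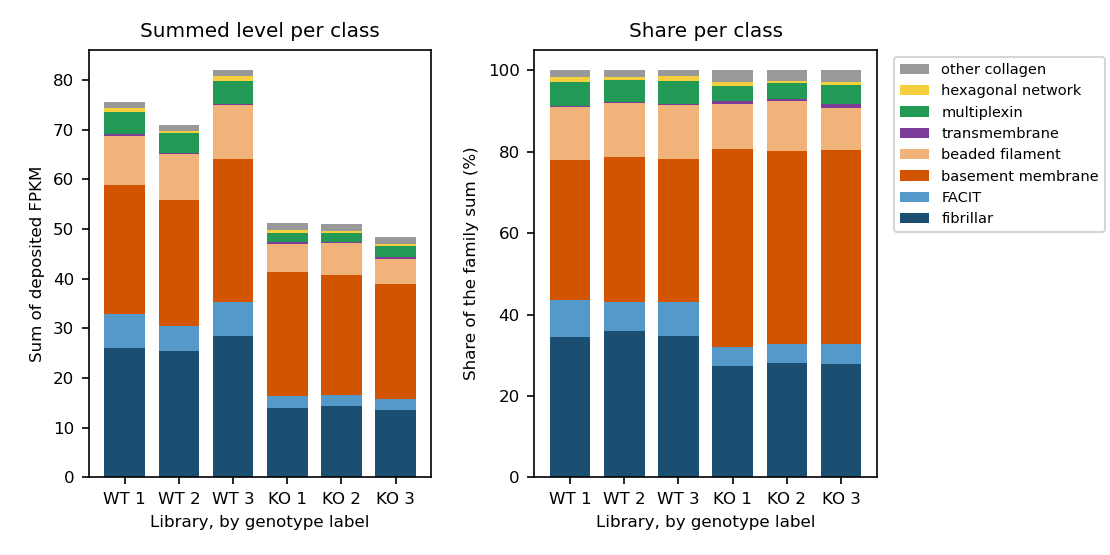
Sum of deposited FPKM per collagen class in each library (left, stacked bars) and the share of each class in the family sum in percent (right). The family sum lies at 70.9 to 81.9 FPKM in the 3 WT-labelled libraries and at 48.3 to 51.2 in the 3 KO-labelled libraries, where basement membrane chains hold 47.5% to 48.6%.

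Collagen chains can be compared by the ratio of their FPKM in each library. Most of the 8 pairs can share a molecule, but Col1a1 with Col3a1 and Col15a1 with Col18a1 are chains of different collagen types. With 3 libraries against 3, the exact two-sided permutation test cannot go below p = 0.1, and the 8 ratios were adjusted together. The ratio of Col1a1 to Col1a2, which pair in a fixed proportion in type I collagen, was 0.944, 0.881 and 0.924 in the WT-labelled libraries and 0.915, 1.19 and 0.825 in the KO-labelled ones (exact p 0.9). These values overlapped fully. The ratio of Col1a1 to Col3a1, which sets type I against type III, was 0.771, 0.675 and 0.786 and then 0.351, 0.358 and 0.306. The groups lay apart by 1.14 on the log2 scale, with SDs of 0.12 in each, at the smallest exact p this design allows (0.1, adjusted 0.4).

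Within type IV the ratio of Col4a1 to Col4a2 went from a mean of 1.16 to 1.08 (exact p 0.3), and within type VI that of Col6a1 to Col6a2 went from 2.14 to 1.96 and that of Col6a1 to Col6a3 from 4.37 to 4.65 (exact p 0.4 for each), all with overlap. The ratio of Col5a1 to Col5a2 was 0.812 and 0.761 (exact p 0.9) and that of Col15a1 to Col18a1 was 1.46 and 1.79 (exact p 0.3), also with overlap. The ratio of Col8a1 to Col8a2 was 0.846, 1.46 and 2.07 in the WT-labelled libraries and 4.52, 13.7 and 23.4 in the KO-labelled ones. The groups did not overlap (exact p 0.1, adjusted 0.4), and the upper values rest on the 7 and 6 counts of Col8a2. Levels of different genes depend on the lengths used for FPKM, which the sources do not state, whereas the difference of a ratio between groups does not.

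**Figure D5:**
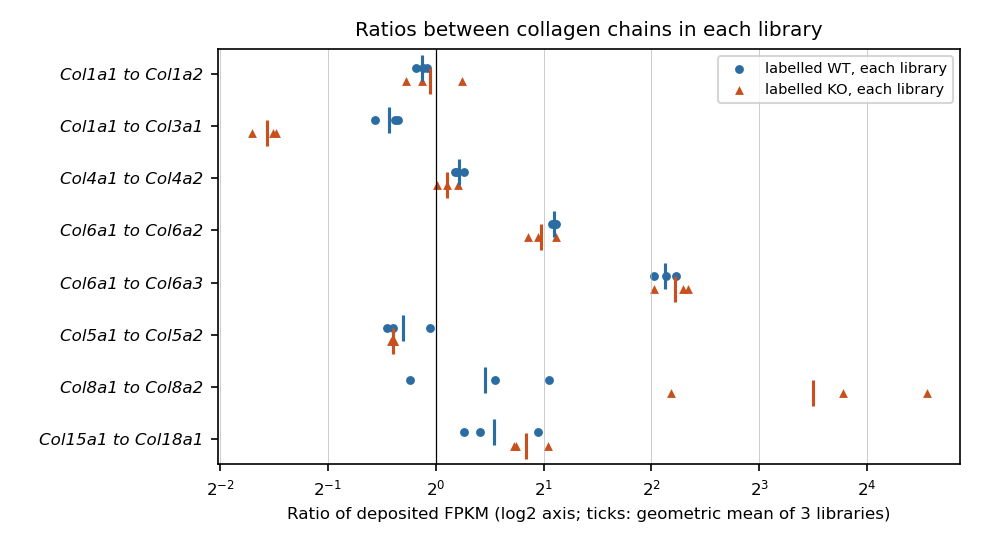
Ratio of deposited FPKM between 2 collagen chains in each library (log2 axis), for 8 pairs, with vertical ticks at the geometric mean of the 3 libraries of a group. The KO-labelled libraries lie apart from the WT-labelled ones for Col1a1 to Col3a1 and for Col8a1 to Col8a2, and overlap for the other 6 pairs.

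Several collagen genes lie side by side in the genome, and such pairs can be read together. Col4a1 and Col4a2 start head to head on chromosome 8, with annotated ends that overlap by 22 bases, and had log2 fold changes of -0.33 and -0.22. Col4a5 and Col4a6 start head to head on the X chromosome with a gap of 1308 bases, and both fell. Col4a3 and Col4a4 do so on chromosome 1 with a gap of 71 bases, and neither passed. Col3a1 and Col5a2 lie tail to tail on chromosome 1, 24614 bases apart, with log2 fold changes of -0.97 and -0.57. Col6a1 and Col6a2 lie on the same strand of chromosome 10 and had changes of -1.04 and -0.92. Whether neighbours differed less than other pairs was not tested.

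Promoter sequence was available for 35 of the 44 collagens from the RefSeq table (GRCm38.p6). The 250 bases before the start of Col3a1 and of Col5a3 are printed 5′ to 3′ on the gene's strand, since these are abundant fibrillar genes that lay on opposite sides of 0. Capitals mark the letters CAGAC (the short DNA element bound by SMAD proteins), GGGCGG (the GC box) and CCAAT, on either strand.
Col3a1, chromosome 1, 45311288 to 45311537, plus strand: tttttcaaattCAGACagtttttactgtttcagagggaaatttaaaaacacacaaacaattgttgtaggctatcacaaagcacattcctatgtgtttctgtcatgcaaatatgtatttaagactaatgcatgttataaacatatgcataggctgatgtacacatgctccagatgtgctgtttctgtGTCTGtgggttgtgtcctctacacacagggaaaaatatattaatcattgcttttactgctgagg
Col5a3, chromosome 9, 20815068 to 20815317, minus strand: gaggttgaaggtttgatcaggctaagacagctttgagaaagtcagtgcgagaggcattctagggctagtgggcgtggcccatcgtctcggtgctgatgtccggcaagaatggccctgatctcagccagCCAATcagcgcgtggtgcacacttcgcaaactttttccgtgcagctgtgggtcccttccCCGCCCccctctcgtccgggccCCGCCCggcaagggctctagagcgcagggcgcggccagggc
The Col3a1 window holds CAGAC or its reverse complement 2 times and neither of the other motifs, and the Col5a3 window holds GGGCGG 2 times, CCAAT 1 time and no CAGAC.

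Over the family, CAGAC was present in 14 of 35 collagen promoters (40.0%) and in 42.1% of 27025 promoters of the same length, and in 6 of the 15 promoters of collagens that fell. The palindrome GTCTAGAC was in 0 of 35 and in 0.174% of all. CCAAT was in 12 of 35 (34.3%, against 34.5% of all). GGGCGG was in 21 of 35 (60.0%, against 32.9% of all), and 10 of the 15 that fell held it. The TEAD letters CATTCC were in 3 of 35 (8.57%, against 12.6% of all) and the TATA letters TATAAA in 5 of 35 (14.3%, against 3504 of 27025). All motifs were read on both strands. No test was made on these shares, and a match of letters is not a binding site.

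The enzymes and proteins that process collagen moved in part with the chains. Of 61 genes in 6 lists 54 were tested, 24 fell, 3 rose and 27 did not pass, with a median log2 fold change of -0.40. Lower genes made up 44.4% of those tested, against 10.5% of all genes tested, and higher genes 5.56%, against 11.5%. Sparc, a collagen-binding matricellular protein, went from 58.9, 60.2 and 66.0 FPKM to 40.0, 38.8 and 35.6, without overlap (log2 fold change -0.84, SE 0.04, edgeR adjusted p 3.56e-07). Serpinh1, the collagen chaperone HSP47, went from 24.0, 21.6 and 25.2 FPKM to 16.5, 14.3 and 12.6, also without overlap (-0.85, SE 0.08, edgeR adjusted p 2.48e-05). These belong to the list of chaperones and export factors, in which 7 of 14 fell and 0 rose, with the general endoplasmic reticulum chaperones Hsp90b1 (-0.45) and Pdia3 (-0.55) among them. Pdia3 did not pass with limma on unfiltered FPKM (adjusted p 0.126).

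Of 14 tested hydroxylation genes 3 fell and 1 rose, or 28.6% called in either direction, a share near that of all genes tested, of which 10.5% were lower and 11.5% higher. P4ha2, a catalytic subunit of prolyl 4-hydroxylase, rose (log2 fold change 0.44, SE 0.10, edgeR adjusted p 0.00761), from 1.57 to 1.92 FPKM up to 2.65 to 2.68. P3h3 (-0.83), P4ha1 (-0.43), the other main catalytic subunit, and P4hb (-0.17), their shared partner, fell. The call of P3h3 was lost without the second WT-labelled library (adjusted p 0.0571), that of P4ha1 without any library but the last KO-labelled one (adjusted p 0.0523 to 0.0896), and that of P4hb without any of the 6 (adjusted p 0.0812 to 0.17).

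Of 5 tested procollagen proteinases and enhancers 2 fell, where 10.5% of all genes tested did. Pcolce2, an enhancer of C-propeptide removal, had 0.727, 1.06 and 0.711 FPKM and then 0.157, 0.186 and 0.306 (log2 fold change -2.09, SE 0.32, edgeR adjusted p 0.00093). Adamts2, the N-proteinase of type I procollagen, fell 2.03-fold (-1.02, edgeR adjusted p 0.00113). Pcolce (-0.16) and Adamts14 (-0.80) did not pass. All 4 tested lysyl oxidases fell, Lox by 0.80, Loxl1 by 0.57, Loxl3 by 0.87 and Loxl2 by 1.04 on the log2 scale. On unfiltered FPKM with limma Loxl1 (adjusted p 0.0995) and Loxl3 (adjusted p 0.17) lost their calls. Loxl2 lost its call when WT-labelled library 1 or 2, or KO-labelled library 1 or 2, was left out (adjusted p 0.0910 to 0.179), and without the count filter (adjusted p 0.0528).

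Among 11 tested collagen receptors 5 fell and 1 rose. For this and the 2 lists below, the shares over all genes tested were 10.5% lower and 11.5% higher. Ddr2, the fibrillar collagen receptor of fibroblasts, went from 3.09, 2.93 and 3.06 FPKM to 1.41, 1.27 and 1.18, without overlap (log2 fold change -1.39, SE 0.09, edgeR adjusted p 1.19e-06). Mrc2, which takes up collagen fragments, fell (-0.67, adjusted p 0.0657 with limma on unfiltered FPKM), as did Itgb1 (-0.30), the shared beta chain of collagen-binding integrins, whose call was lost with limma on log2(FPKM + 1) (adjusted p 0.287). Adgrg1, a receptor for type III collagen, rose (0.31, adjusted p 0.0545 with limma after quantile normalization). Of 6 tested degradation genes 3 fell and 1 rose. Mmp2 fell by 0.90, Mmp9 by 1.46 and Ctsk, the collagen-cutting cathepsin of osteoclasts and fibroblasts, by 1.58 on the log2 scale. Mmp8, the neutrophil collagenase, had 0, 0 and 3 counts and then 24, 16 and 33 (edgeR adjusted p 0.0367), and this call was lost without any library but the last WT-labelled one (adjusted p 0.0926 to 0.145), without which the fitted log2 fold change, set by the prior count once 1 group is at 0, went from 4.26 to 7.54. The neutrophil markers, of which 4 of 7 rose and 1 fell, went from a sum of 5.26 to 6.21 CPM to one of 26.6 to 30.5 in the same libraries, and their part in the value of Mmp8 was not tested.

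A list of 14 genes known to respond to TGF-beta was read because the title names SMAD3. Of these 9 fell, 0 rose and 5 did not pass. Among all genes tested, 10.5% were lower and 11.5% higher. The list had a median log2 fold change of -0.78, against -0.79 over the tested collagens and -0.02 over all genes tested. Many genes of the list are also made by fibroblasts and smooth muscle cells, whose markers fell in the same libraries. The part of those cells was not tested.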

How the data were processed

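Poly(A) RNA of 6 libraries labelled mouse aorta was sequenced in read pairs, per the labels' protocols. The table the authors deposited holds whole-number counts per gene, without normalization, and FPKM per the file headers, whose computation is not stated. Per the submitters' processing notes, Bowtie 0.12.2, HISAT2 2.0 and the build mm8 were involved, with no role named. Counter and strand setting: not given in the sources used here. Antisense genes therefore cannot be told apart. Deposited starts and ends equalled GENCODE M21 on GRCm38 for 38 of the 45 genes, so positions are GRCm38. The RNA protocol speaks of an adipose type, against the label aorta. Of counts from 1 to 40, 34.0% were multiples of 4, more than even spacing gives, so 1 read pair may often stand for 4 counts. A count of 0 was taken to allow 3 read pairs, or 12 counts, per library, for counting error only.

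Groups follow the genotype labels. The main test was edgeR 4.0.16 on the counts (R 4.3.3, filterByExpr, TMM scaling, quasi-likelihood F-test, two-sided, Benjamini-Hochberg over 16620 genes, threshold 0.05). Fold changes, standard errors and CPM are on that scale. Each standard error was derived as the absolute log2 fold change over the square root of the F statistic. The 95% intervals were built from it with a t distribution, so both are approximations. FPKM served for levels, class sums and chain ratios, the last tested by exact permutation. In simulated counts for 16620 genes, 67 were changed 1.5-fold, 67 2-fold and 66 4-fold. Of these 34.3%, 64.2% and 92.4% were recovered, with 10 false calls. Genes of low CPM were left out of the changed ones, and far more genes (3658) were called in the data. These shares are therefore not the power of the main test, least of all for scarce collagens. Alternatives were DESeq2 1.42.0, its size factors, no filter, robust fitting, counts divided by 4, no mitochondrial genes, a replicate block, limma 3.58.1 on log2 FPKM with a pseudocount of 1 or 0.1, and leaving out each library. Figures used matplotlib 3.10.9.

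The members, classes, lists and tests were chosen with earlier results of these data known. All members of the rule could be named, with up to 4 genes per processing list and 2 per marker list by smallest p, markers at 0 in a group, and Otud1. The marker lists not named above gave these counts of tested, lower and higher genes: pericyte 8, 4 and 0, macrophage 9, 5 and 0, adipocyte 10, 4 and 4, Schwann and nerve 7, 3 and 0, bone 3, 1 and 0, hepatocyte 8, 7 and 0, erythroid 6, 5 and 0, epithelial 5, 4 and 0. Among all genes tested, 10.5% were lower and 11.5% higher.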

Additional observations from a re-analysis of the deposited data

How the results depend on the processing

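Counting each of the 20 lower collagens under each alternative that could test it, 301 calls held, 21 were lost and 0 changed direction. The count of lower collagens was 18 to 20 when each library was left out in turn, and 18 of the 20 held in every such fit, the exceptions being Col12a1 and Col4a6. On FPKM with limma, 16 collagens passed the filter of a mean FPKM of at least 1 in a group. Of these 11 (pseudocount 1) or 12 (pseudocount 0.1) were lower. After quantile normalization, with the same filter, 14 of the 16 tested were lower, all of them among the 20. The other tested collagens, Col5a3 and Col7a1, had not been called in edgeR, so no call that could be tested was lost. Without the FPKM filter 43 collagens were tested, and 16 of the 20 were still called. Over all genes the lower count was 785, 775 and 857 with a pseudocount of 1, of 0.1 and without a filter, against 1751, and that of processing genes was 14, 14 and 12, against 24. Higher genes made up 77.9%, 77.1% and 71.7% of calls in these fits, 52.1% in edgeR and 52.0% after quantile normalization, where 1 processing gene was higher, against 3. The cause was not tested. The count of higher collagens was 1 (Col5a3) with DESeq2, robust fitting, counts divided by 4 and the FPKM fits without quantile normalization. The log2 ratio of class sums on TMM-scaled CPM was -1.14 for fibrillar chains, -1.71 for FACIT, -0.30 for basement membrane, -1.25 for multiplexins, 0.066 for other collagens and -0.80 for the family. On FPKM, the log2 ratio of sums without Col1a1, Col1a2 and Col3a1 was -0.037 for fibrillar chains and -0.39 for the family. That omission was not run on CPM. The log2 difference of the ratio of Col1a1 to Col1a2 ran from -0.076 (without the second KO-labelled library) to 0.19, and that of Col5a1 to Col5a2 from -0.17 to 0.031 (without the second WT-labelled library). Among genes that did not pass, signs turned for Col28a1 (0.057 with the replicate block, 0.031 on unfiltered FPKM), Col20a1 (0.037 on unfiltered FPKM) and Col4a3bp (0.038, 0.055 and 0.038 on FPKM with a pseudocount of 1, of 0.1 and without a filter). With each library left out in turn the log2 change ran from -0.31 to 0.24 for Col28a1, -0.17 to 0.18 for Col20a1, -0.78 to 0.19 for Col6a6, -1.12 to 0.22 for Col4a3, -0.32 to 0.26 for Col6a5, -0.079 to 0.19 for Col23a1 and -0.22 to 0.0097 for Col4a3bp. The groups share replicate numbers, but deviations of libraries with the same number correlated at only 0.0489, 0.00757 and 0.0326, and the second WT-labelled library correlated better with the last labelled KO (0.0525), so the numbers were not taken as pairs. With the replicate block 3255 genes were called, against 3658, and 19 of the 20 lower collagens were called, all but Col12a1.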
